A study of Mus musculus with 80 samples.

Results

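The genes described here are the 5 GABA-A receptor alpha subunit genes Gabra2, Gabra3, Gabra4, Gabra5 and Gabra6, taken by gene name from a count table of 27179 genes. All 5 also passed the filter for testing, for which 8 or more libraries had to reach 5 CPM (counts divided by the library's total and scaled to 1000000), as did 13016 genes in all. Gabra2, Gabra3 and Gabra4 reached 5 CPM in all 77 libraries, Gabra5 in 62 and Gabra6 in 16. The libraries came from C57BL/6 mice (the C57BL/6J substrain by the study's methods), 8 virgin females and 8 primiparous females, which had borne and raised 1 litter. Both states were of the same strain and matched for age, with birth dates within 3 days on either side. The primiparous females were mated at 8 weeks of age by housing them with a male for 2 weeks, and by the labels were harvested 3 weeks after weaning, while the study's methods place the harvest later, and the virgins had no male. The hypothalamus was taken whole and the amygdala, hippocampus, cortex and cerebellum from the left side, so each animal gave up to 5 libraries. The hypothalamus and cortex had 8 virgin and 8 primiparous libraries, and the other regions 7 virgin and 8 primiparous libraries.

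GABA-A receptors are chloride channels opened by GABA, the main inhibitory transmitter of the adult brain, and each is built from 5 subunits around a central pore. Most contain alpha and beta subunits together with a gamma or a delta subunit, and GABA binds where an alpha meets a beta subunit. The alpha subunit sets much of the sensitivity to GABA and to benzodiazepines and where in the cell the receptor sits. Gabra2 and Gabra3 encode subunits of mostly synaptic, benzodiazepine-sensitive receptors. Gabra4 encodes a subunit that often pairs with delta outside synapses, Gabra5 one known for extrasynaptic receptors of hippocampal pyramidal cells, and Gabra6 one known from cerebellar granule cells. Receptors with delta subunits are known targets of neurosteroids, whose levels change in pregnancy.

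The 5 genes lie on the minus strand of 4 chromosomes, beside other subunit genes. On build GRCm38.p6, which is mm10, Gabra2 spans chr5:70958392-71095849 and Gabra4 chr5:71569734-71658308, 474 kb apart, with Gabrg1 116 kb from Gabra2. Gabra5 spans chr7:57407669-57591016, 20.5 kb from Gabrg3. Gabra6 spans chr11:42306437-42321072, 98.4 kb from Gabrb2. Gabra3 spans chrX:72432676-72656919, 158 kb from Gabre and 168 kb from Gabrq. The spans of Gabra4 and Gabrb1 overlap by 388 bases, and reads from this stretch cannot be assigned without strand, which the sources used here do not state for the counting.

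The promoters differed in base composition, and they are shown for the genes that moved together in the hypothalamus (Gabra2, Gabra3 and Gabra4) and for the gene seen at a high level in 1 region (Gabra6). Each sequence holds the 250 bases before a RefSeq start on GRCm38.p6, written 5′ to 3′ on the minus strand, with every CG pair (CpG) in capitals.
Gabra2, chr5:71095850-71096099: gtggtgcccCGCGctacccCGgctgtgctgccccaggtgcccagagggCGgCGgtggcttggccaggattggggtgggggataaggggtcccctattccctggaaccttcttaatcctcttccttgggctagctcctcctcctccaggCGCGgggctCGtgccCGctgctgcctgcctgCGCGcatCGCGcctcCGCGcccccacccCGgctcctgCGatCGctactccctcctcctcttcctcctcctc
Gabra3, chrX:72656920-72657169: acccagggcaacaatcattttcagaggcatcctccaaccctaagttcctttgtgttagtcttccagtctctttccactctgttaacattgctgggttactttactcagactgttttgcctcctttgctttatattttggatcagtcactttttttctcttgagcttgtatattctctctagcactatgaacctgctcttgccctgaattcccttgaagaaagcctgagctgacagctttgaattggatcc
Gabra4, chr5:71658309-71658558: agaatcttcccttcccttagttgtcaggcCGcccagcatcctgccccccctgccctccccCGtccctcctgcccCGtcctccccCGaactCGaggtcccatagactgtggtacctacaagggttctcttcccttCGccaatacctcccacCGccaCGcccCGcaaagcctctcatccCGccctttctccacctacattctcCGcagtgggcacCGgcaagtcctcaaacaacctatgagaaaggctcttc
Gabra6, chr11:42321073-42321322: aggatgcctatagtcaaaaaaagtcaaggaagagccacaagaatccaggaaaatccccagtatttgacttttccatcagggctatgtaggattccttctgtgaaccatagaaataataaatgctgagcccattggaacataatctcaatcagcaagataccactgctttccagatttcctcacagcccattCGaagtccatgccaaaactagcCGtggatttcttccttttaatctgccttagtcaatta

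The Gabra2 window held 18 CpG and 70.0% GC, more CpG than 78.3% of the 32851 promoter windows of the table, and the Gabra4 window held 12 CpG and 61.2% GC. The Gabra5 window, at chr7:57510060-57510309, held 9 CpG, against a median of 6 over all windows. It lies inside the span of Gabra5, before an internal RefSeq start, while the windows of Gabra2, Gabra4 and Gabra6 adjoin the ends of their spans. The Gabra6 window held 2 CpG, and 29.0% of windows held 2 or fewer. Both RefSeq windows of Gabra3 held no CpG, as did 7.87% of windows. TATAAA, the TATA box letters, was searched on both strands and found in 12.4% of all windows, and at 1 site that the overlapping Gabra3 windows share, but in none of the other 4 genes. GGGCGG, the GC box letters bound by Sp1, stood in 32.7% of windows, once in that of Gabra2 and at 2 places in that of Gabra4. TTGGCA, letters bound by nuclear factor I, stood in 12.3% of windows and, among the 5 genes, in that of Gabra6 alone. The genes that moved together thus had promoters both rich in CpG and without CpG.

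Total counts ran from 7959192 to 37871854 per library, with a median of 17623886. The libraries of each region were pooled for sequencing, so region and pool cannot be told apart. Marker genes were highest in their labelled region for 8 of 8 hypothalamus, 5 of 6 hippocampus, 5 of 6 cortex, 15 of 15 cerebellar and 3 of 6 amygdala genes. The hippocampus library of primiparous animal 413 stood apart. It held 54.3 CPM of Gabra6 (1113 counts), against at most 1.77 CPM in the 14 other hippocampus libraries, and results that rest on it are given with and without it. Above the median of the other hippocampus libraries, this was 8.46% of the cerebellar mean. It was also above all other hippocampus libraries for 7 of 9 granule cell markers and 6 of 6 Purkinje cell markers, with a median excess of 7.77% and 7.49% of their cerebellar means.

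**Figure D1:**
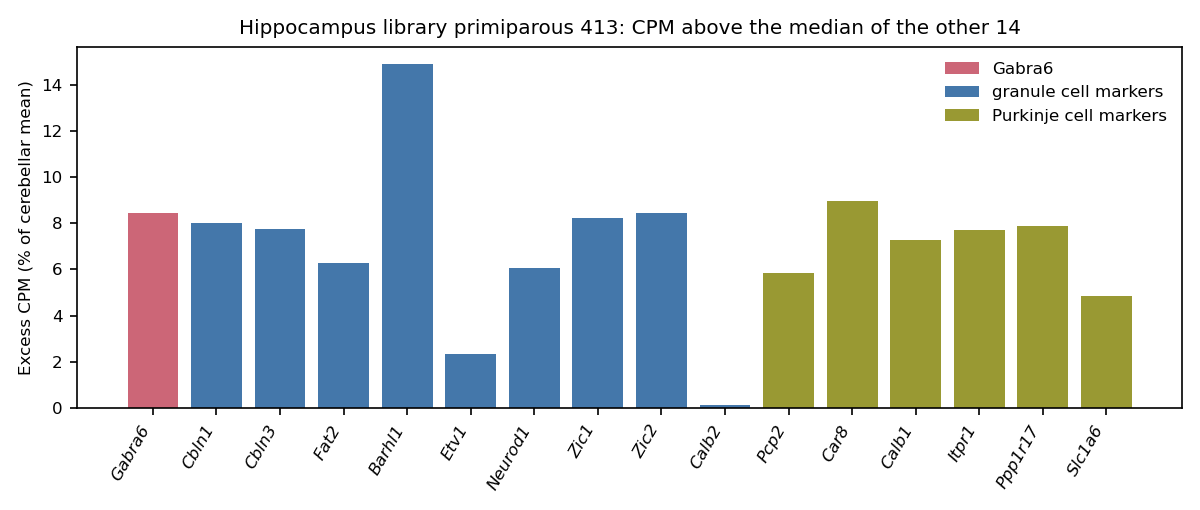
Bars give, for Gabra6 and for markers of granule and Purkinje cells, the CPM of the hippocampus library of primiparous animal 413 above the median of the 14 other hippocampus libraries, as a percentage of the mean cerebellar CPM. Gabra6, at 8.46%, lay within the range of the granule markers, which ran from 0.116% for Calb2 to 14.9% for Barhl1.

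Each gene had its own order of regions, and each was compared between regions in 1 edgeR fit of all 10 groups. In CPM, Gabra2 was highest in the hippocampus (lowest 51.0, median 63.2, highest 71.6, n = 15) and the amygdala (42.2, 61.8 and 71.5, n = 15). It was intermediate in the hypothalamus (33.6, 43.8 and 56.2, n = 16) and lower in the cortex (23.6, 32.4 and 42.7, n = 16) and the cerebellum (16.7, 25.2 and 31.3, n = 15). The hippocampus and the amygdala did not pass the test against each other, with a log2 difference of 0.09 and a 95% interval of -0.03 to 0.22 (edgeR, adjusted p = 0.213), and every other pair of regions passed.

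Gabra3 was the most abundant of the 5 genes per length in the amygdala, the hypothalamus and the cortex. Its CPM were 142.8 to 208.7 in the amygdala (median 186), 126 to 198.3 in the hypothalamus (median 152.7) and 119.8 to 180.5 in the cortex (median 156.2). The hippocampus held 52.9 to 90.6 CPM (median 73.2) and the cerebellum 12.3 to 19.7 CPM (median 14.2), so that neither overlapped any of these 3 regions. The hypothalamus and the cortex were the only pair that did not pass, with a log2 difference of -0.08 and a 95% interval of -0.20 to 0.04 (edgeR, adjusted p = 0.235).

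Gabra4 was highest in the hippocampus, cortex and amygdala and lowest in the hypothalamus and the cerebellum. The hippocampus held 79.3 to 112.1 CPM (median 100.6), the cortex 60.8 to 124.7 CPM (median 91.7) and the amygdala 64.4 to 105 CPM (median 82.6). The hypothalamus held 28.0 to 81.1 CPM (median 43.3) and the cerebellum 29.3 to 47.4 CPM (median 35.8). The cortex passed against neither neighbour, with adjusted p = 0.161 against the amygdala and 0.0816 against the hippocampus (edgeR), while the hippocampus was above the amygdala by 0.28 on the log2 scale (SE 0.0816, adjusted p = 0.00219). With the animal as a replicate block the hippocampus was also above the cortex, by 0.18 on the log2 scale (edgeR, adjusted p = 0.037).

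Gabra5 was highest in the hippocampus. Its hippocampus libraries held 168.7 to 192.2 CPM (median 180.6, n = 15), above every library of every other region. The hypothalamus held 54.8 to 75.1 CPM (median 62.8), the cortex 46.6 to 86.1 CPM (median 61.8) and the amygdala 40.6 to 51.2 CPM (median 46.2). In the cerebellum it was close to the limit of detection, with 0.241 to 1.89 CPM from 3 to 37 counts. The hypothalamus lay 3.16-fold below the hippocampus (edgeR, log2 -1.66, SE 0.0688, adjusted p = 3.78e-36). The hypothalamus and the cortex did not pass against each other, with a log2 difference of -0.10 and a 95% interval of -0.23 to 0.03 (adjusted p = 0.171).

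Gabra6 was measured at a high level in the cerebellum, where its libraries held 536.3 to 716.8 CPM (median 635.8, n = 15). Of the 62 libraries outside the cerebellum, 6 held 0 counts and 20 held at most 3. Apart from the hippocampus library of animal 413, the highest value outside the cerebellum was 2.22 CPM, and the lowest cerebellar library was 242-fold above it. The lowest cerebellar library was 9.88-fold above the library of animal 413. The hypothalamus was lower than the hippocampus with that library (log2 -2.43, adjusted p = 0.00709) but did not pass without it (-0.91, adjusted p = 0.0587, edgeR). The hippocampus passed against the cortex with that library (log2 2.59, adjusted p = 0.00455) and without it (1.07, adjusted p = 0.0262, edgeR). Both regions were near the floor there, with medians of 0.484 CPM in the hippocampus without that library and 0.402 CPM in the cortex (0 to 14 counts).

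**Figure D2:**
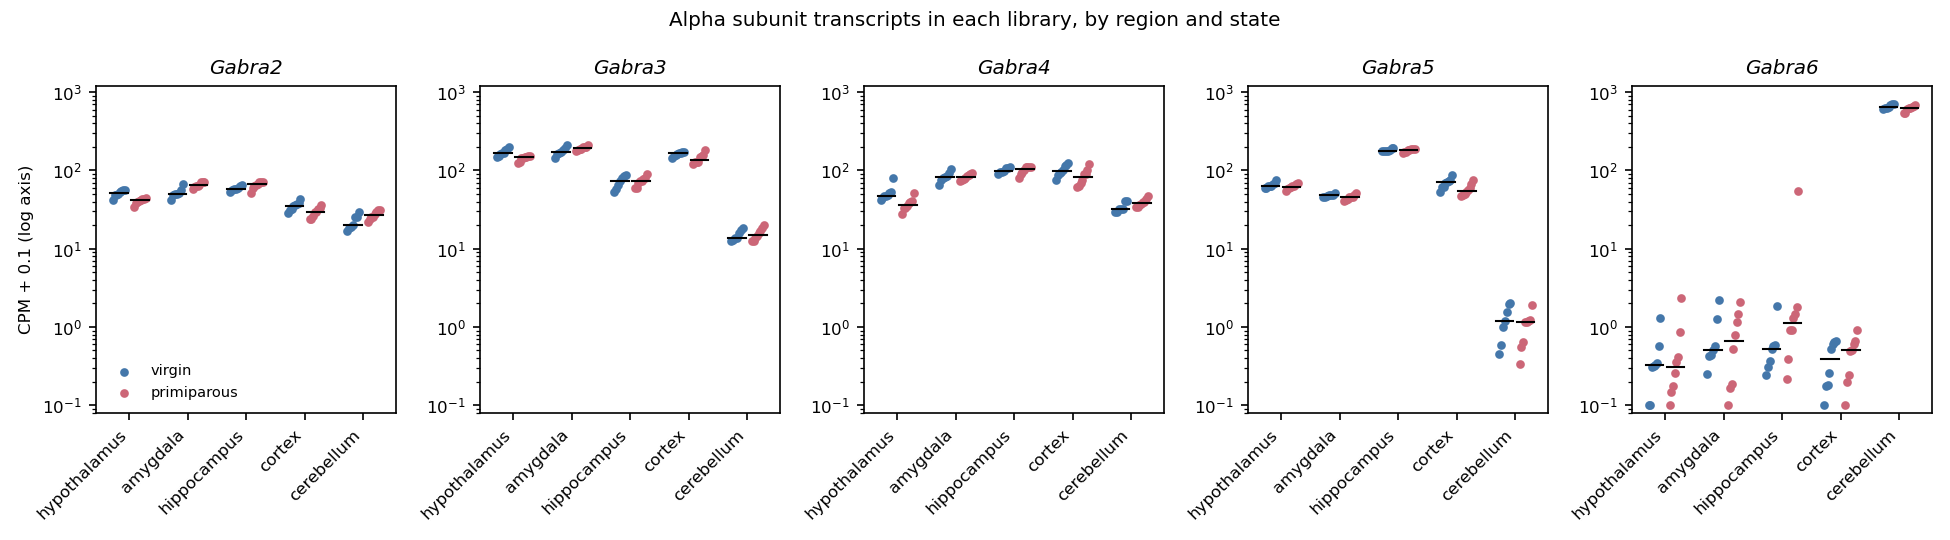
Points are the 77 libraries, with CPM + 0.1 on a log axis for each gene, by region and state, and black lines mark group medians. Gabra6 sits between 536.3 and 716.8 CPM in the cerebellum and at or below 2.22 CPM elsewhere but for 1 hippocampus library at 54.3 CPM, and Gabra5 falls from a median of 180.6 CPM in the hippocampus to a median of 1.05 CPM in the cerebellum.

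Between regions most genes differ, so that the counts of the 5 genes stand beside a high background. Gabra6 passed the filter only through the 15 cerebellum libraries and the hippocampus library of animal 413, so its calls against the cerebellum were fixed by that filter. The cerebellum passed for 5 of 5 genes, Gabra6 included, against each other region, where 81.1% (hypothalamus), 78.7% (hippocampus), 79.9% (cortex) and 80.2% (amygdala) of the 13016 genes passed in edgeR. The hypothalamus passed for 5 of 5 against the hippocampus (73.0% of genes), or 4 of 5 without the library of animal 413, 2 of 5 against the cortex (77.7%) and 4 of 5 against the amygdala (71.0%). The hippocampus passed for 4 of 5 against the cortex (67.0%) and 3 of 5 against the amygdala (58.7%). The cortex passed for 3 of 5 against the amygdala (62.5%). For the hypothalamus and the cortex, Gabra2 was 1.31-fold higher in the hypothalamus and Gabra4 2.28-fold higher in the cortex.

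To compare the genes with each other, counts were divided by exon length and depth (CPM per 1000 bases of exon, RPKM), and each gene was taken as a share of the 5 summed. Gabra3 held the largest share in the hypothalamus (53.4% ± 1.70, SD, n = 16), the amygdala (55.6% ± 2.19, n = 15) and the cortex (49.0% ± 2.40, n = 16). In the hippocampus Gabra5 held 57.7% ± 3.25 (n = 15) and Gabra3 17.4% ± 2.65. In the cerebellum Gabra6 held 94.99% ± 0.878 (n = 15). Gabra2 held between 5.28% and 9.15% in the 4 other regions and 1.21% in the cerebellum. The summed RPKM of the 5 genes was 269 ± 20.2 in the cerebellum, of which Gabra6 made 255.6, and 74.8 ± 8.43 in the hypothalamus.

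**Figure D3:**
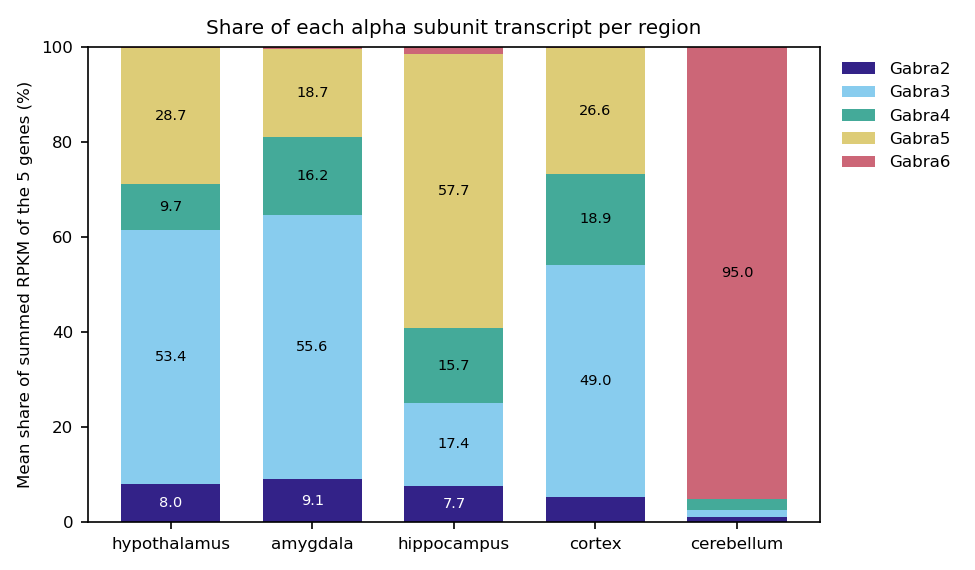
Stacked bars give the mean share of each gene in the summed RPKM of the 5 genes (%), over the 15 or 16 libraries of each region. Gabra3 leads in the hypothalamus, amygdala and cortex with 49.0% to 55.6%, Gabra5 in the hippocampus with 57.7% and Gabra6 in the cerebellum with 94.99%.

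The main question of the study was whether parity leaves a lasting difference, and in the hypothalamus Gabra2, Gabra3 and Gabra4 were lower in the primiparous females. For Gabra2 the virgin libraries held 41.8, 51.5 and 56.2 CPM (lowest, median and highest) and the primiparous libraries 33.6, 41.3 and 44.4 CPM. All 8 primiparous libraries lay below the virgin mean and 4 of them below every virgin library. The difference was -0.35 on the log2 scale (SE 0.0689), so that the level fell by 21.4% (edgeR, adjusted p = 0.00234).

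For Gabra3 the virgin libraries held 149, 164.7 and 198.3 CPM and the primiparous libraries 126, 146.7 and 155 CPM. All 8 primiparous libraries lay below the virgin mean and 6 below every virgin library. The log2 difference was -0.27 (SE 0.0611), so that the level fell by 17.3% (edgeR, adjusted p = 0.00442).

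For Gabra4 the virgin libraries held 42.4, 47.7 and 81.1 CPM and the primiparous libraries 28.0, 36.6 and 50.9 CPM. All 8 primiparous libraries lay below the virgin mean, which the highest virgin library raised, while 7 lay below the virgin median and below every virgin library. The log2 difference was -0.49 (SE 0.12), so that the level fell by 28.9% (edgeR, adjusted p = 0.00753). The virgin library at 81.1 CPM, of animal 4490, was well above the next at 52.6 CPM, and without it the difference was -0.37. That library also had the highest summed level of 5 thalamus markers, 419 CPM, against 244 to 360 CPM in the 15 others, and the part of thalamic RNA in its value was not tested. The cerebellum and hippocampus libraries of animal 4490 were among those left out of the count table.

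Gabra5 and Gabra6 did not pass in the hypothalamus. For Gabra5 the virgin libraries held 58.7, 63.4 and 75.1 CPM and the primiparous libraries 54.8, 61.7 and 69.9 CPM, which overlapped widely. Its log2 difference was -0.09 with a 95% interval of -0.21 to 0.03 (edgeR, adjusted p = 0.268). Gabra6 was low there, at 0 to 2.22 CPM. Its log2 difference of 0.37 had a wide 95% interval of -1.13 to 1.87 (edgeR, adjusted p = 0.757).

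**Figure D4:**
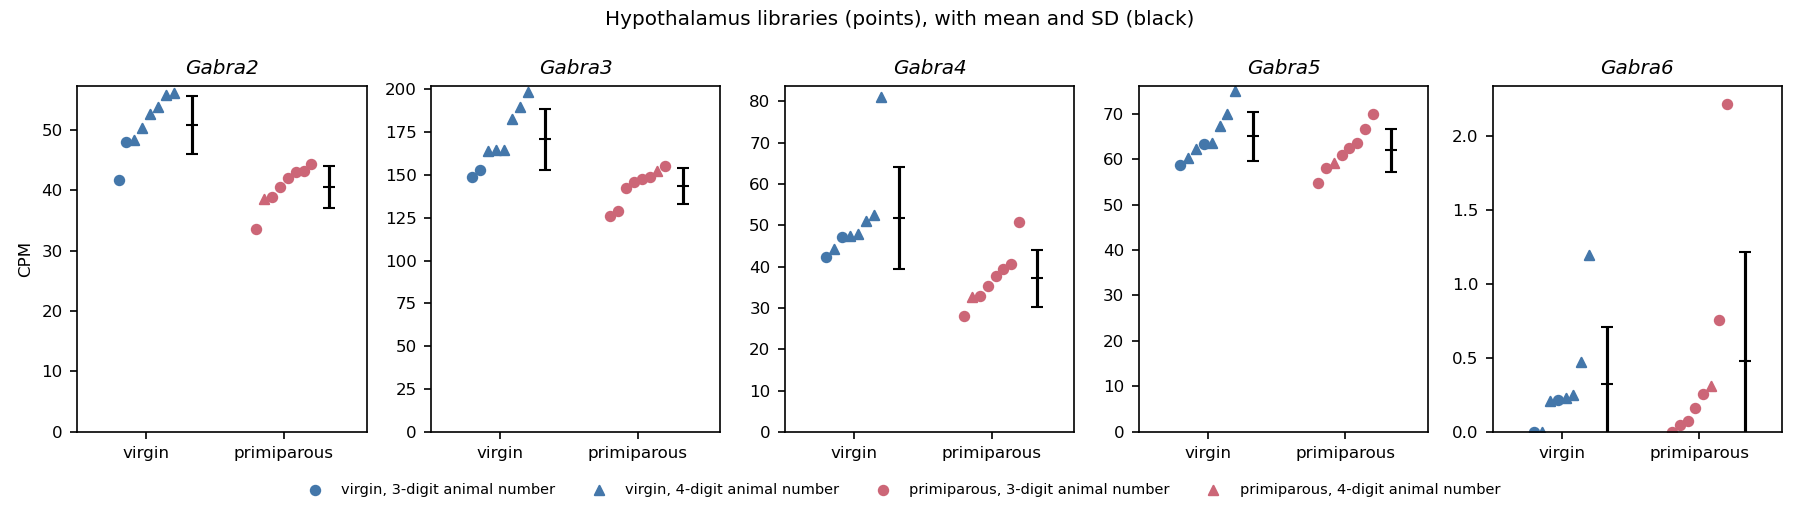
Points are the 16 hypothalamus libraries, in CPM on linear axes from 0, by state, with circles for 3-digit and triangles for 4-digit animal numbers, and black bars give the mean and SD. For Gabra2, Gabra3 and Gabra4 all 8 primiparous libraries lie below the virgin mean, while Gabra5 overlaps widely and Gabra6 stays at or below 2.22 CPM.

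Thus 3 of 5 genes passed and all 3 were lower, where 22.6% of the 13016 genes passed in either direction and 11.8% were lower. The median log2 difference of the 5 genes was -0.27, against 0.014 over all genes. In bulk tissue, fewer cells of a type and less RNA per cell cannot be told apart. The 6 general neuron markers summed to 3120 to 3480 CPM in virgin and 2970 to 3330 CPM in primiparous hypothalamus, with 2 lower, 1 higher and the rest not past the threshold. The 6 inhibitory neuron markers summed to 1170 to 1330 and 1100 to 1340 CPM, with 1 lower and 2 higher. Of 6 hippocampus markers 2 were higher and none lower, with mean sums of 140 CPM in virgins and 165 CPM in primiparous females. Of 8 hypothalamus markers 2 were lower and none higher, with mean sums of 843 and 882 CPM. The part of all these markers in the result was not tested.

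A further property of the libraries moved with the states. In the hypothalamus the trend of a library with GC content, in log2 per 10 percentage points of GC, had a median of -0.129 in virgins (-0.157 to 0.087) and 0.072 in primiparous females (-0.072 to 0.262). Transcripts of the 5 genes lie below the median GC of the tested genes, 49.9%, to unlike degrees. They run from 38.4% for Gabra2, lower than all but 2.33% of the tested genes, to 47.1% for Gabra5, lower than all but 35.2%. The share of tested genes with less GC was 4.84% for Gabra6, 12.7% for Gabra4 and 15.8% for Gabra3. After an offset took out what length and GC of the genes predicted in every library, the log2 differences were -0.10 for Gabra2 (adjusted p = 0.331), -0.13 for Gabra3 (0.0864) and -0.33 for Gabra4 (0.0978, edgeR), so that all 3 calls were lost. Over all genes, 437 passed with this correction, against 2939 without it.

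Animal numbers had 3 digits for 2 virgins and 7 primiparous females and 4 digits for 6 virgins and 1 primiparous female, and what this split stands for is not given in the sources used here. With it as a covariate all 3 calls were also lost, at log2 differences of -0.26 for Gabra2, -0.15 for Gabra3 and -0.42 for Gabra4 (edgeR, adjusted p = 0.196, 0.325 and 0.263), and 3 of all genes passed. Among 3-digit animals, Gabra2 averaged 44.9 CPM in the 2 virgins and 40.8 CPM in the 7 primiparous females, Gabra3 151 and 142 CPM, and Gabra4 44.8 and 37.9 CPM. Among 4-digit animals, the single primiparous female held 38.7, 152 and 32.6 CPM, against means of 52.9, 177 and 54.1 CPM in 6 virgins. Among the 3-digit animals the states overlapped for each of the 3 genes, with 41.8 to 48.1 CPM in virgins and 33.6 to 44.4 CPM in primiparous females for Gabra2, 149 to 153 and 126 to 155 CPM for Gabra3, and 42.4 to 47.3 and 28.0 to 50.9 CPM for Gabra4. Among the 4-digit animals the primiparous female lay below every virgin, which held 48.3 to 56.2, 164 to 198 and 44.2 to 81.1 CPM.

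Outside the hypothalamus none of the 5 genes passed for parity in the edgeR fits of each region alone. In the cerebellum 0.707% of the 13016 genes passed, and 0% did in the cortex, hippocampus and amygdala, with 1277, 961 and 1544 genes at an unadjusted p under 0.05. The smallest p among the 5 genes outside the hypothalamus was that of Gabra2 in the amygdala, where virgin libraries held 42.2, 49.9 and 66.2 CPM and primiparous libraries 57.0, 64.2 and 71.5 CPM. All 8 primiparous libraries lay above the virgin mean and 3 above every virgin library. The log2 difference was 0.34 (SE 0.0812, unadjusted p = 0.00029 in edgeR), with an adjusted p of 0.162 in the edgeR fit of that region and of 0.0328 in DESeq2, where 0.415% of genes passed. It was also past the threshold in 1 edgeR fit of all 10 groups (adjusted p = 0.0433, where 142 of 13016 genes passed) and with the animal number series as a covariate (0.0407, where 14 passed). In the amygdala, 6 markers of striatal medium spiny neurons summed to 406 to 722 CPM in virgins and 305 to 551 CPM in primiparous females. None of the 6 passed (edgeR), and their part in the values of Gabra2 was not tested. In the hippocampus the fit of 10 groups called 6 genes, Gabra6 among them (0.00904), with the library of animal 413 in it.

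Other values of Gabra2 leaned up in the cerebellum (22.02 ± 4.66 CPM in 7 virgins, 27.0 ± 3.51 in 8 primiparous females, edgeR adjusted p = 0.154) and down in the cortex (35.0 ± 4.56 and 29.3 ± 4.55 CPM, 0.488). In the cerebellum Gabra4 was at 33.6 ± 4.70 CPM in virgins and 38.7 ± 4.73 CPM in primiparous females (edgeR, adjusted p = 0.191). In the cortex Gabra5 was at 69.2 ± 10.2 and 56.8 ± 9.84 CPM (edgeR, adjusted p = 0.479), and in the hippocampus it was at 181.9 ± 6.73 and 180.3 ± 8.54 CPM, where the log2 difference had a 95% interval of -0.08 to 0.07. In the amygdala Gabra5 was at 48.0 ± 1.63 and 45.3 ± 3.45 CPM, with 6 of 8 primiparous libraries below every virgin library and 1 above (edgeR, adjusted p = 0.711). In the hippocampus Gabra2 was at 58.9 ± 4.33 and 65.0 ± 6.87 CPM, with 5 of 8 above every virgin library and 1 below (edgeR, adjusted p = 0.661). Gabra6 in the cerebellum was at 658 ± 43.1 and 617.2 ± 52.4 CPM (edgeR, adjusted p = 0.435). The trend with GC content ran the same way in the cortex as in the hypothalamus, with medians of -0.081 in virgins and 0.102 in primiparous females, and the other way in the amygdala, with 0.071 and -0.06.

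**Figure D5:**
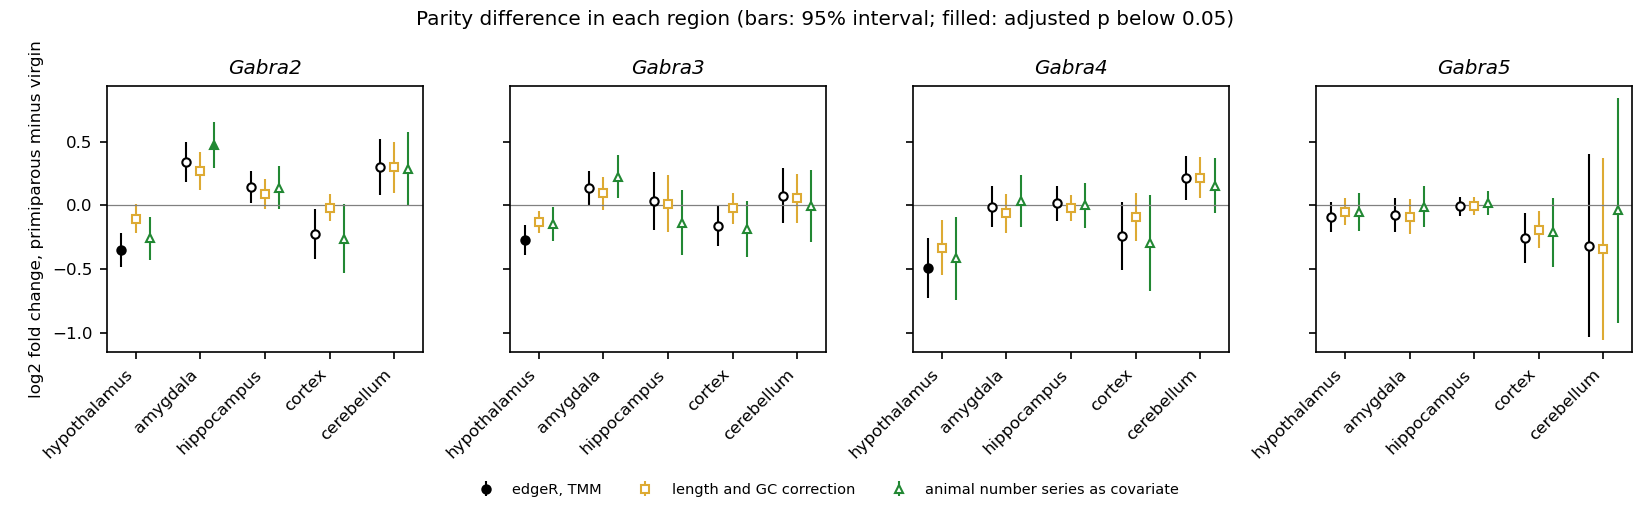
Points give the log2 fold change, primiparous minus virgin, of 4 genes in each region with bars of the 95% interval, from edgeR (black), with the length and GC correction (yellow) and with the animal number series as a covariate (green), filled where the adjusted p is below 0.05. The hypothalamic falls of Gabra2, Gabra3 and Gabra4 are filled in black only, and Gabra2 in the amygdala is filled with the covariate only.

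Whether the parity difference was another in the hypothalamus than elsewhere was tested as an interaction, in which all comparisons share the hypothalamus libraries. Against the amygdala, Gabra2 had a log2 interaction of -0.69 (SE 0.107, edgeR adjusted p = 0.000264), Gabra3 of -0.41 (0.00288) and Gabra4 of -0.48 (0.0311), where 8.45% of genes passed below 0. With the replicate block, Gabra4 no longer passed (adjusted p = 0.0545, edgeR). Against the cerebellum, Gabra2 was at -0.66 (adjusted p = 0.00206), Gabra4 at -0.71 (0.00432) and Gabra3 at -0.36 (0.0401, edgeR), where 9.54% passed below 0, and Gabra3 was at 0.0669 with the block. Against the hippocampus, Gabra2 was at -0.50 (adjusted p = 0.00192) and Gabra4 at -0.52 (0.0212, edgeR), where 10.4% passed below 0. Gabra3 missed the threshold there at -0.32 (0.0802) and passed at -0.36 (0.0439) without the library of animal 413.

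Against the cortex none of the 5 genes and 0% of the 13016 genes passed in edgeR, while 336 genes had an unadjusted p under 0.05. The log2 interaction there was -0.12 for Gabra2, with a 95% interval of -0.36 to 0.12, -0.11 for Gabra3 (-0.31 to 0.09) and -0.25 for Gabra4 (-0.63 to 0.13). With the length and GC correction, the genes that still passed were Gabra2 against the amygdala, and Gabra2 and Gabra4 against the cerebellum. Of the 13016 genes, 77 passed below 0 against the amygdala and 735 against the cerebellum with that correction. With the correction and the replicate block together, Gabra2 against the amygdala no longer passed (-0.37, adjusted p = 0.109, edgeR).

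The alpha subunits work with other subunits, of which 13 genes were listed and 9 passed the filter. In the hypothalamus 4 of these 9 were lower and none higher in primiparous females by edgeR, beside 11.8% of all genes lower, with a median log2 difference of -0.30 against 0.014 over all genes. Gabrb2, encoding a beta subunit, fell from 277 ± 36.2 to 216 ± 31.8 CPM (n = 8 and 8, log2 -0.38, adjusted p = 0.00524, edgeR). Gabrg1, at its highest mean level in the hypothalamus among the 5 regions, fell from 141 ± 19.0 to 106 ± 12.3 CPM (log2 -0.44, adjusted p = 0.00181, edgeR). With the length and GC correction Gabrb2 alone of the 4 still passed (log2 -0.27, adjusted p = 0.035, edgeR), and with the animal number series none did. In the 4 other regions none of the 9 passed.

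Of 17 scaffold and trafficking genes, all tested, 1 was lower and 3 were higher in primiparous hypothalamus (edgeR), a share close to the 22.6% of all genes, with a median log2 difference of 0.05. Nlgn2, the adhesion protein of inhibitory synapses, rose from 236 ± 20.3 to 288 ± 28.6 CPM (adjusted p = 0.00379). Lhfpl4, which holds receptors at inhibitory synapses, rose from 201 ± 8.61 to 227 ± 16.9 CPM (0.0246), and Hap1, which links receptors to transport motors, from 1080 ± 75.1 to 1340 ± 99.3 CPM (0.000997).

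Of 8 genes for GABA synthesis, release and uptake, 1 was lower and 1 higher in primiparous hypothalamus, again close to the share of all genes. Gad2, which makes GABA, fell from 536 ± 48.1 to 479 ± 47.9 CPM (edgeR, adjusted p = 0.0342), and Slc32a1, which loads it into vesicles, rose from 173 ± 17.8 to 219 ± 38.1 CPM (0.0126). Of 5 genes for the chloride gradient, 2 were lower and 1 higher, beside 22.6% of all genes in either direction. The chloride importer Slc12a2 fell from 121 ± 11.8 to 106 ± 7.62 CPM (edgeR, adjusted p = 0.0152), the kinase gene Wnk3 fell from 89.8 ± 9.42 to 76.3 ± 11.7 CPM (0.0282), and the exporter Slc12a5 rose from 774 ± 39.3 to 864 ± 70.5 CPM (0.0372). None of the 5 GABA-B receptor genes and none of the 4 neurosteroid synthesis genes tested (7 listed) passed. In the hypothalamus none of the genes named for these scaffold, synthesis and chloride lists passed with the length and GC correction or with the animal number series. With the correction 1 further scaffold gene did, Gabarapl2 (log2 0.20, adjusted p = 0.0173, edgeR), which is named after its values were seen.

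The genes whose levels were most like each alpha subunit were taken by Pearson's r of log2(CPM + 4) over the 77 libraries, which share 5 regions, so that r reflects mainly the region pattern and is given as a description. For Gabra6 these were Cbln3 (0.999), Fat2 (0.998) and Pcp2 (0.997), of which Cbln3 and Fat2 are granule cell genes and Pcp2 is a Purkinje cell gene. For Gabra5 they were Htr1a (0.984), encoding a serotonin receptor, Snrnp25 (0.973) and Arhgef4 (0.971). For Gabra3 they were Rprm (0.972), Prkar2b (0.970), encoding a regulatory subunit of protein kinase A, and Ctnna2 (0.969). For Gabra4 they were Fam49a (0.954), Pgm2l1 (0.953) and Plcb1 (0.946), encoding a phospholipase C, and for Gabra2 Ptprg (0.923), Sh3bgrl (0.903) and Mgea5 (0.900). By Spearman's rank correlation Cbln3 stayed the gene most like Gabra6, while the other 4 genes each had another gene first.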

How the data were processed

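Polyadenylated RNA of 5 brain regions of 16 mice was made into NEBNext Ultra libraries and sequenced as single 100-base reads. Per the submitters' processing notes, CASAVA, HISAT2, featureCounts, edgeR and limma were used with build mm10, with versions not given. Counts per gene, whole numbers that the authors deposited without scaling, covered 77 of 80 libraries, and 3 virgin libraries marked as not included were not analysed here. A deposited log2 table of the 13016 genes, which the authors made with an offset of 4, was used for an alternative. Its log2 values equal those of counts divided by size factors within 5e-05 and lie a median of 3.94 from log2(CPM + 4).

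Counts were tested with edgeR 4.0.16 in R 4.3.3 (TMM, robust quasi-likelihood F-test) within each region, across all 10 groups for regions, and as an interaction, with Benjamini-Hochberg adjustment over the 13016 genes and a threshold of 0.05. Alternatives used limma 3.58.1, DESeq2 1.42.0, other scalings and filters, a replicate block, and an offset for what gene length and GC predicted in every library, known for 97.05% of genes. Figures and tables used Python 3.11.15. The 5 genes and all gene lists were chosen with earlier results of these data known. The genes named are the 5, for each the 3 most correlated genes, and those of the lists that passed in the hypothalamus or cerebellum. Some genes that this rule takes are named nowhere in the text and their values are not reported here. Equal animal numbers pair libraries of different regions, since 1 animal gave them. Their deviations had a median correlation of -0.0132 to 0.104 over the 10 region pairs. The fits of parity in the hypothalamus and of the interaction were tested on simulated data. Promoter sequences and positions come from RefSeq on GRCm38.p6, where all 5 genes matched.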

Additional observations from a re-analysis of the deposited data

Results flagged for a closer look

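In 5 of 50 groups of libraries (5 genes, 5 regions and both states), 1 library lay apart from its group by Dixon's test, where chance gives about 1 in 20. That rate holds for normally distributed values, which the low CPM of Gabra6 need not be, so the count of groups is only a description. Gabra6 in the hippocampus stood at 54.3 CPM in primiparous animal 413, against 1.70 CPM in the next library. Gabra4 in the hypothalamus stood at 81.1 CPM in virgin animal 4490, against 52.6 CPM in the next. The 3 others were Gabra6 at low counts, at 1.20 CPM (27 counts) in hypothalamus virgin 4489, 2.22 CPM (33 counts) in hypothalamus primiparous 418 and 1.77 CPM (34 counts) in hippocampus virgin 4487.

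The parity difference in the hypothalamus was below that of another region by an edgeR interaction for 3 genes. For Gabra2 the log2 interaction was -0.66 against the cerebellum, -0.50 against the hippocampus and -0.69 against the amygdala. For Gabra3 it was -0.36 against the cerebellum and -0.41 against the amygdala. For Gabra4 it was -0.71 against the cerebellum, -0.52 against the hippocampus and -0.48 against the amygdala. These comparisons share the hypothalamus libraries. For Gabra3 against the cerebellum and Gabra4 against the amygdala, the replicate block ended the call (adjusted p = 0.0669 and 0.0545, edgeR). With the length and GC correction, only Gabra2 against the amygdala and Gabra2 and Gabra4 against the cerebellum still passed. With both, Gabra2 against the amygdala no longer passed (adjusted p = 0.109, edgeR). Against the cortex none of the 5 genes passed.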

How the results depend on the processing

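Of the counts of genes past the threshold, 110 kept within 1.5 times their value over the alternatives that kept all libraries and 11 did not. In the hypothalamus 3 genes passed for parity, and 0 did with the length and GC correction or with the animal number series as a covariate. In the amygdala 0 passed, and 1 did (Gabra2) with DESeq2 (log2 0.34, adjusted p = 0.0328), with the series covariate (0.48, 0.0407), in 1 fit of all 10 groups (0.34, 0.0433) and without virgin animal 4486 (0.0398), while the other fits kept it out. In the cerebellum 1 passed with limma-voom quality weights (Gabra4, log2 0.28, adjusted p = 0.0491, where 229 genes passed as lower and 396 as higher, against 14 and 78 in edgeR), and in the hippocampus 1 in the fit of 10 groups (Gabra6, log2 3.82, adjusted p = 0.00904). In the fit of the hippocampus alone it was 3.83 (adjusted p = 0.615, edgeR), and 0.77 without primiparous animal 413. Of the interactions, against the hippocampus 0 genes passed with the length and GC correction, with or without the replicate block. Against the amygdala 1 passed with the correction and 0 with the correction and the block. The cause of these changes was not tested.

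With the animal as a replicate block, the interaction of Gabra3 against the cerebellum (-0.34, adjusted p = 0.0669) and of Gabra4 against the amygdala (-0.47, 0.0545) no longer passed and Gabra4 in the hippocampus against the cortex did (0.18, 0.037, edgeR). It changed no other call of the 5 genes. With limma-voom the first of these also no longer passed (-0.36, adjusted p = 0.0623) and the last also passed (0.17, 0.0367).

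Some values that did not pass changed sign without reaching the threshold. For parity these were Gabra6 in the hypothalamus (-0.032, quality weights), Gabra3 in the cerebellum (-0.003, series covariate), and in the hippocampus Gabra3 (-0.14, series covariate), Gabra4 (-0.019, length and GC correction) and Gabra5 (0.019, series covariate, and 0.009, quality weights). In the amygdala Gabra4 turned to 0.004 with limma-voom, 0.001 on the deposited log2 values, 0.033 with the series covariate and 0.078 with quality weights. Gabra6 there turned to -0.32 with limma-voom, -0.001 and -0.021 with limma-trend at offsets of 4 and 1, -0.15 on the deposited log2 values and -0.83 with quality weights. Between regions, Gabra6 turned to -0.38 with limma-voom for the hypothalamus against the cortex. Of the interactions, Gabra6 against the cortex turned to -0.36 and -0.39 with the block, without and with the correction, and to -0.16 with limma-voom, and Gabra5 against the amygdala to 0.044 with the correction and to 0.035 with the correction and the block.

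Leaving out each library in turn kept the 3 hypothalamic calls, with log2 differences of -0.39 to -0.32 for Gabra2, -0.30 to -0.24 for Gabra3 and -0.57 to -0.37 for Gabra4. It kept 0 passing in the cerebellum, hippocampus and cortex and gave 0 to 1 in the amygdala. Ranges that crossed 0 were -0.81 to 1.25 for Gabra6 in the hypothalamus, -0.03 to 0.086 for Gabra3, -0.01 to 0.063 for Gabra4 and -0.021 to 0.005 for Gabra5 in the hippocampus, and -0.067 to 0.058 for Gabra4 and -0.35 to 0.59 for Gabra6 in the amygdala. Between regions, leaving out hippocampus libraries gave -0.038 to 1.598 for Gabra6 in the hippocampus against the amygdala, the lowest without animal 413. The interaction without animal 413 and the use of the deposited log2 values were chosen after seeing the data. At 3 counts or fewer, as in 20 of 62 libraries outside the cerebellum, Gabra6 allows no comparison of states.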
